A study of Mus musculus with 24 samples.

Results

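Lysosomal lipid breakdown was followed through 8 genes, *Asah1*, *Smpd1*, *Galc*, *Psap*, *Gm2a*, *Lipa*, *Pla2g15* and *Ppt1*, chosen by gene name out of 55487 genes in the count table. The cells were mouse embryonic fibroblasts (MEFs), either wild type (WT) or lacking TFEB and TFE3 (*tfeb tfe3* DKO), and each genotype received vehicle (DMSO), torin1 or MK-8722. Torin1 is an inhibitor of the kinase MTOR, and MK-8722 is a small molecule that activates the kinase AMPK. Messenger RNA of 4 cultures in each of the 6 groups was sequenced, giving 24 libraries. The labels number the cultures and give their passage, which was 7, 8, 9 and 11 in WT and 8, 9, 10 and 11 in DKO, with each passage once in each group. WT and DKO were each 1 line made elsewhere, so a difference between genotypes cannot be told apart from a difference between these 2 lines, and p-values measure the spread between passages of a line. The labels give no dose or duration.

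Lipids reach the lysosome with endocytosed membrane, lipoproteins and autophagic cargo and are cut there by acid hydrolases. Sphingolipids are taken apart stepwise, and several steps need a small activator protein that lifts the lipid out of the membrane toward the enzyme. Inherited loss of these enzymes or activators leads to lysosomal storage diseases. TFEB and TFE3 are transcription factors held in the cytoplasm when MTORC1 phosphorylates them, and they switch on lysosomal and autophagy genes once they reach the nucleus. The comparisons address whether torin1 and MK-8722 changed the mRNAs of this degradative step. They also address whether these changes differed between the WT line and the line lacking the 2 factors.

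The libraries held 24668921 to 33332562 estimated counts (median 27988364), and RNA integrity numbers were 9.7 to 9.9 in 23 libraries and 7.9 in DKO MK-8722 replicate 3. *Tfeb* fell from 22.9 ± 1.74 CPM (counts scaled to a common library size by TMM; mean ± SD, n = 4 here and below) in WT DMSO to 2.25 ± 0.289 CPM in DKO DMSO. *Tfe3* mRNA was 120.2 ± 1.17 CPM in WT DMSO and 124 ± 2.11 CPM in DKO DMSO (log2 fold change 0.04, SE 0.031, adjusted p = 0.279). Under DMSO the mRNA level of *Tfe3* therefore did not mark the DKO libraries. In the edgeR test used below, *Tfe3* was higher in DKO by 0.20 on the log2 scale under torin1 (adjusted p = 7.29e-06). Under MK-8722 it was higher by 0.23 (adjusted p = 8.34e-07), and both differences were less than 1.2-fold. Of 10 fibroblast markers, 9 in WT and 8 in DKO averaged at least 1 CPM, with *Thy1* among those below 1 CPM in DKO, and their summed level was 6189 to 10080 CPM. Of 10 macrophage markers only *Cd68*, a lysosomal membrane glycoprotein, averaged at least 1 CPM, while *Adgre1*, *Tyrobp* and *C1qa* were at 0 in every group. The summed macrophage list moved with treatment, from 2.23 to 2.84 CPM in WT DMSO to 11.3 to 14.8 CPM in WT MK-8722. Of the 5 epithelial markers *Krt8* passed 1 CPM in every group and *Cdh1* in WT torin1, and their sum went from 3 to 4.87 CPM in DKO DMSO up to 9.95 to 14.6 CPM (DKO torin1) and 5.97 to 11.3 CPM (DKO MK-8722). None of the 4 endothelial markers passed 1 CPM, and their sum went from 0.170 to 0.400 CPM in WT DMSO to 0.896 to 1.31 CPM in WT MK-8722. The part of these lists in the results below was not tested. WT passage 11 held the highest or lowest library of a WT group for several members.

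Each member was tested with edgeR's quasi-likelihood test in 1 fit over 15401 genes and 24 libraries. Below, rose and fell are used only where the Benjamini-Hochberg adjusted p was under 0.05 and the fold change at least 1.2, and the response in DKO compared to WT is the drug effect in DKO minus that in WT on the log2 scale. In WT cells torin1 raised 6 of the 8 members and lowered 0, beside 26.6% and 20.5% of all genes tested that rose and fell. MK-8722 raised 4 of 8 and lowered 0 (10.3% and 5.87% of all genes). In DKO cells torin1 raised 1 and lowered 1 of 8 (23% and 20.2% of all genes), and MK-8722 raised 1 and lowered 0 (5.47% and 3.21% of all genes). The response to torin1 was lower in DKO for 5 of 8 members and higher for 0 (6.33% and 4.68% of all genes). For MK-8722 the response was lower for 3 and higher for 0 (4.08% and 1.42% of all genes). Each of these counts of 0 was also 0 by limma voom and by DESeq2, and by edgeR at an unadjusted p under 0.05, apart from 1 member below DMSO with MK-8722 in WT (*Gm2a*). The median log2 fold change of the members was 0.42 for torin1 and 0.23 for MK-8722 in WT, against 0.05 and -0.01 over all genes. In DKO the medians of the members were 0.06 and 0.10, against 0.02 and 0.00. The drug comparisons of a genotype share its DMSO libraries, and both responses share all DMSO libraries.

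**Figure D1:**
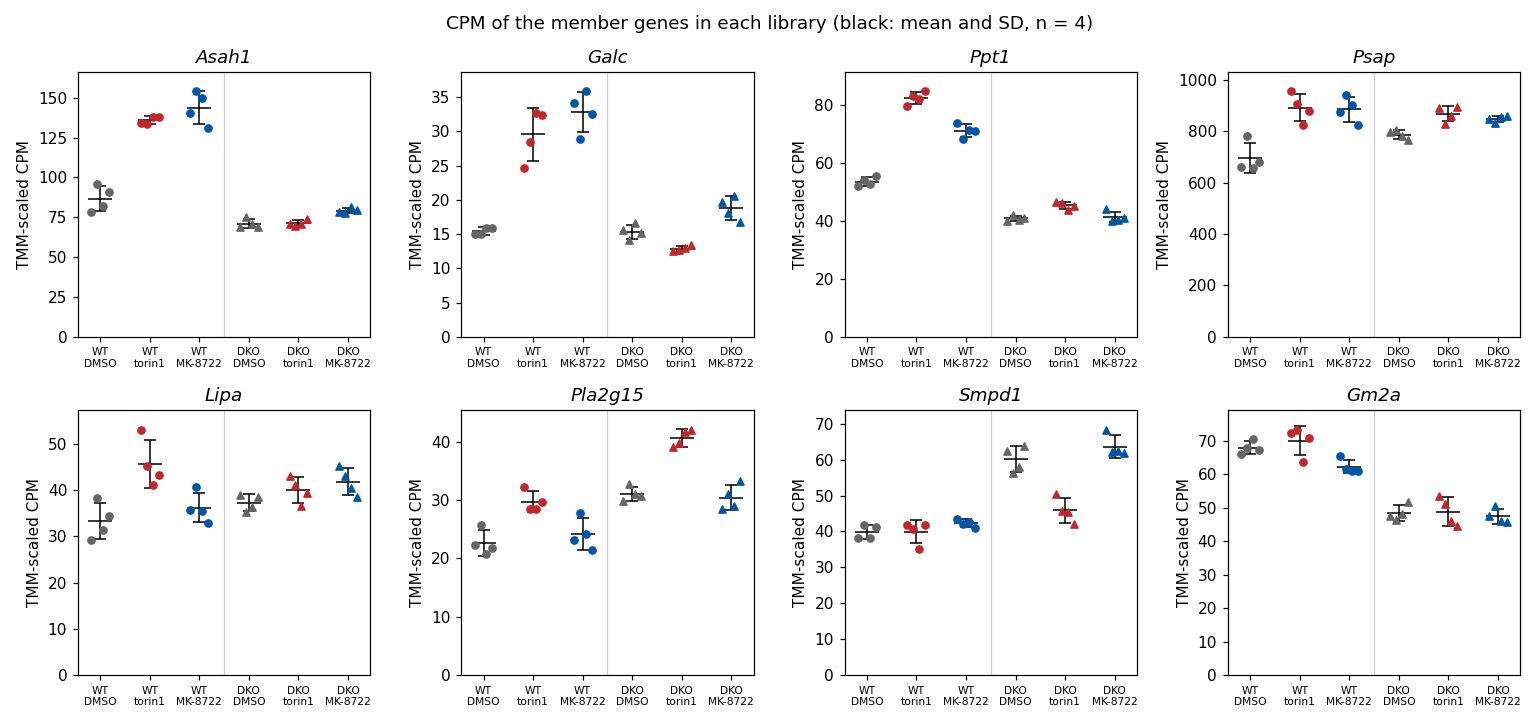
TMM-scaled CPM of the 8 members in each of the 24 libraries, with linear axes from 0. Points are libraries (circles WT, triangles DKO; grey DMSO, red torin1, blue MK-8722) and black marks give the mean and SD of 4. *Asah1*, *Galc*, *Ppt1* and *Psap* lay above the WT DMSO libraries with both drugs in WT. *Pla2g15*, *Psap* and *Ppt1* lay above DMSO with torin1 in both genotypes. Torin1 and DMSO libraries were apart for 54.1% (WT) and 52.8% (DKO) of all genes.

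Among the sphingolipid hydrolases, *Asah1* (ENSMUSG00000031591) encodes acid ceramidase, which splits ceramide into sphingosine and a fatty acid. It lies on chromosome 8 at 41340197 to 41374773, minus strand (GRCm38). In WT DMSO the 4 libraries held 78.3, 95.9, 81.9 and 91.1 CPM, given in the order of the labels' replicate numbers here and below. Torin1 libraries held 134, 134, 138 and 138 CPM and MK-8722 libraries 140.5, 154, 149.8 and 131 CPM. All 8 drug-treated WT libraries were above all WT DMSO libraries, as held for 54.1% (torin1) and 29.8% (MK-8722) of all genes in either direction. In DKO the values were 68.8, 74.9, 70.8 and 69.1 CPM with DMSO and 71.0, 69.2, 70.7 and 74.1 CPM with torin1, which overlapped. With MK-8722 they were 78.1, 77.7, 81.6 and 79.3 CPM, all above the DKO DMSO libraries (groups apart for 21.1% of all genes). In bulk libraries fewer cells with a transcript and less of it in each cell cannot be told apart.

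*Asah1* rose by a log2 fold change of 0.65 (SE 0.054, adjusted p = 5.31e-10) with torin1 and 0.73 (SE 0.054, adjusted p = 5.1e-10) with MK-8722 in WT, or 1.57-fold and 1.66-fold. In DKO the torin1 effect was 0.01 (95% interval -0.10 to 0.12), and the MK-8722 effect of 0.16 was 1.12-fold and so under the fold limit (adjusted p = 0.0385). The difference between genotypes itself passed the test, with responses of -0.64 (SE 0.076, adjusted p = 2.81e-06) for torin1 and -0.57 (SE 0.076, adjusted p = 2.02e-05) for MK-8722. *Asah1* was already lower in DKO than in WT under DMSO (log2 fold change -0.29, adjusted p = 5.58e-05). Without WT DMSO replicate 2, of passage 11, that difference was -0.24 and under the fold limit.

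*Galc* (ENSMUSG00000021003) encodes galactosylceramidase, which removes galactose from galactosylceramide and psychosine, and it lies on chromosome 12 at 98202294 to 98259459, minus strand. WT DMSO libraries held 15, 15, 15.9 and 15.8 CPM, torin1 libraries 24.6, 28.4, 32.7 and 32.4 CPM, and MK-8722 libraries 34.1, 28.9, 35.8 and 32.5 CPM. The DMSO libraries were tightly grouped, and the lowest torin1 library was that of passage 11. In DKO, DMSO libraries held 15.6, 14.1, 16.6 and 15.1 CPM, torin1 libraries 12.6, 12.6, 12.9 and 13.4 CPM, and MK-8722 libraries 19.7, 18, 20.6 and 16.7 CPM. Within DKO every torin1 library was below and every MK-8722 library above every DMSO library. Torin1 and DMSO groups were apart for 52.8% of all genes, and MK-8722 and DMSO groups for 21.1%.

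*Galc* showed the widest drug effects of the 8 members in WT, 0.94 with torin1 (SE 0.082, adjusted p = 1.37e-09) and 1.09 with MK-8722 (SE 0.082, adjusted p = 7.3e-10). In DKO the torin1 value was -0.25 (adjusted p = 0.0141), short of a 1.2-fold decrease, and the MK-8722 value was 0.29 (SE 0.084, adjusted p = 0.0161), which passed. The MK-8722 call in DKO ended without DKO DMSO replicate 2 (0.25, adjusted p = 0.0577), without DKO MK-8722 replicate 1 (0.26, adjusted p = 0.0531) and without DKO MK-8722 replicate 3 (0.24, adjusted p = 0.0617). The last of these, with the lowest RNA integrity number of the 24 libraries (7.9), held the highest *Galc* level of its group. The torin1 value in DKO passed the fold limit without DKO DMSO replicate 2 (-0.30), DKO DMSO replicate 4 (-0.27) or DKO torin1 replicate 4 (-0.27). Responses were -1.19 (SE 0.12, adjusted p = 2.22e-07) for torin1 and -0.80 (SE 0.12, adjusted p = 6.65e-05) for MK-8722. Under DMSO, *Galc* differed between genotypes by -0.01 (95% interval -0.18 to 0.17). An annotated antisense gene, *Gm47439*, shares 400 of 14879 exon bases with *Galc* and had 0 to 14 estimated counts per library.

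*Smpd1* (ENSMUSG00000037049), for acid sphingomyelinase, which turns sphingomyelin into ceramide, lies on chromosome 7 at 105554360 to 105558389, plus strand. WT libraries held 38.1, 41.9, 38.1 and 41.2 CPM with DMSO, 41.9, 40.6, 35.2 and 41.8 CPM with torin1 and 43.5, 42.0, 42.7 and 41.1 CPM with MK-8722, all overlapping. DKO libraries held 62.4, 56.2, 57.9 and 63.9 CPM with DMSO, 50.4, 45.7, 45.3 and 42.1 CPM with torin1 and 68.3, 62.1, 62.5 and 61.7 CPM with MK-8722. Every DKO library was above every WT library of the same treatment, and in DKO the torin1 libraries were below those of both other groups. The genotypes were apart in this way, in either direction, for 56.8% (DMSO), 60.3% (torin1) and 54.7% (MK-8722) of all genes. Torin1 libraries of DKO were apart from DMSO for 52.8% and from MK-8722 for 49.9% of all genes.

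In WT the drug effects on *Smpd1* were 0.00 (95% interval -0.12 to 0.12) with torin1 and 0.09 (-0.04 to 0.21) with MK-8722. In DKO it fell by 0.39 on the log2 scale with torin1 (SE 0.059, adjusted p = 5.45e-06), and its response to torin1 was -0.39 (SE 0.083, adjusted p = 0.00245). The response to MK-8722 was -0.00 (95% interval -0.18 to 0.17). *Smpd1* was higher in DKO than in WT by 0.59 under DMSO (adjusted p = 8.63e-09) and by 0.59 under MK-8722 (adjusted p = 9.16e-09). Under torin1 the difference was 0.20, or 1.15-fold, and so under the fold limit (adjusted p = 0.00448).

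*Ppt1* (ENSMUSG00000028657) encodes palmitoyl-protein thioesterase, which removes fatty acids from cysteines of S-acylated proteins in the lysosome, and lies on chromosome 4 at 122836242 to 122859175, plus strand. WT libraries held 52.1, 54.1, 52.9 and 55.6 CPM with DMSO, 79.9, 83.3, 82.1 and 84.8 CPM with torin1 and 73.9, 68.4, 71.5 and 71.3 CPM with MK-8722. DKO libraries held 40.1, 42.2, 40.5 and 41.1 CPM with DMSO, 46.5, 46.1, 43.9 and 45.3 CPM with torin1 and 44.1, 40.1, 40.4 and 41.1 CPM with MK-8722. The 3 WT groups did not overlap each other, as torin1 and MK-8722 did not for 52.2% of all genes, and every WT library was above every DKO library. In DKO every torin1 library was above every DMSO library, and these groups were apart for 52.8% of all genes. Within a treatment, the genotypes were apart for 56.8% (DMSO), 60.3% (torin1) and 54.7% (MK-8722) of all genes.

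*Ppt1* rose in WT by 0.62 (SE 0.035, adjusted p = 9.49e-13) with torin1 and by 0.41 (SE 0.035, adjusted p = 5.12e-09) with MK-8722. In DKO the torin1 value was 0.15 (SE 0.035, adjusted p = 0.000881), or 1.11-fold, and the MK-8722 value was 0.02 (95% interval -0.06 to 0.09). Responses were -0.47 (SE 0.049, adjusted p = 4.87e-07) for torin1 and -0.39 (SE 0.050, adjusted p = 8.89e-06) for MK-8722. *Ppt1* was lower in DKO by 0.39 on the log2 scale under DMSO (log2 fold change -0.39, adjusted p = 1.66e-09), and the gap was -0.86 under torin1 and -0.78 under MK-8722. *Cap1* on the opposite strand shares 129 of 3674 exon bases with *Ppt1* and had 10100 to 13580 estimated counts per library. How the count was split between the strands there is not given in the sources used here.

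The promoters of these genes are shown because TFEB and TFE3 bind E-box elements of the CLEAR type, whose core is CACGTG. Windows of 300 bases, from 250 before to 50 after the start site, were taken from RefSeq (GRCm38.p6) for 32851 start sites. They matched 7 of the 8 members, and *Asah1* had no window in the table. The GENCODE start of *Gm2a* lies 130 bases downstream of its RefSeq start, so its window ends before the GENCODE start. For *Pla2g15* the GENCODE start lies 45 bases downstream. CACGTG was in none of the 8 member windows (*Psap* has 2) and in 7.15% of all windows, and TCACGTGA, which contains it, was in none of them and in 0.974% of all windows. TCATGTGA, a related octamer searched on both strands, was in 0.986% of all windows and among the members in that of *Ppt1* alone, 14 bases into the transcript by the RefSeq start and 2 bases before the GENCODE start of the gene. The stretch around it is printed first, with the octamer in capitals, followed by the 250 bases before the start sites of *Ppt1* and *Galc*, which responded to both drugs, and of *Gm2a*, for which neither drug effect passed the test. Lower case marks bases outside the searched octamer.
*Ppt1*, chr4:122836229-122836258, plus strand: agtccccgcggTCATGTGAttgctaagatg
*Ppt1*, chr4:122835977-122836226, plus strand: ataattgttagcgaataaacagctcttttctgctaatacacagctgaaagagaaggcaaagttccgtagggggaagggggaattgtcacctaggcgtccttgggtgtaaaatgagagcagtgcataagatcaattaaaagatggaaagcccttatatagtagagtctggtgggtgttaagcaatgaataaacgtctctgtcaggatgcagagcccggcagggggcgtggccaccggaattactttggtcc
*Galc*, chr12:98259460-98259709, minus strand: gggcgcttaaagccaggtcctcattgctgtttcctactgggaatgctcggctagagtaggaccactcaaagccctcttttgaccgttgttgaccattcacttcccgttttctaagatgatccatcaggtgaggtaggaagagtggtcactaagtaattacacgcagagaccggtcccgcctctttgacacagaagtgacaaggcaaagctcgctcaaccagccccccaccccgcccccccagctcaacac
*Gm2a*, chr11:55097735-55097984, plus strand: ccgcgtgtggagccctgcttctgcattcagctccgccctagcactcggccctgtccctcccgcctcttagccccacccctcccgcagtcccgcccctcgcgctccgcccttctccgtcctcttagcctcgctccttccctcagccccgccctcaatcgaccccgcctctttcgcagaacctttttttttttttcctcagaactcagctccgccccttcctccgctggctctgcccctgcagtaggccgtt
A match, or its lack, describes the letters of these windows alone.

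**Figure D2:**
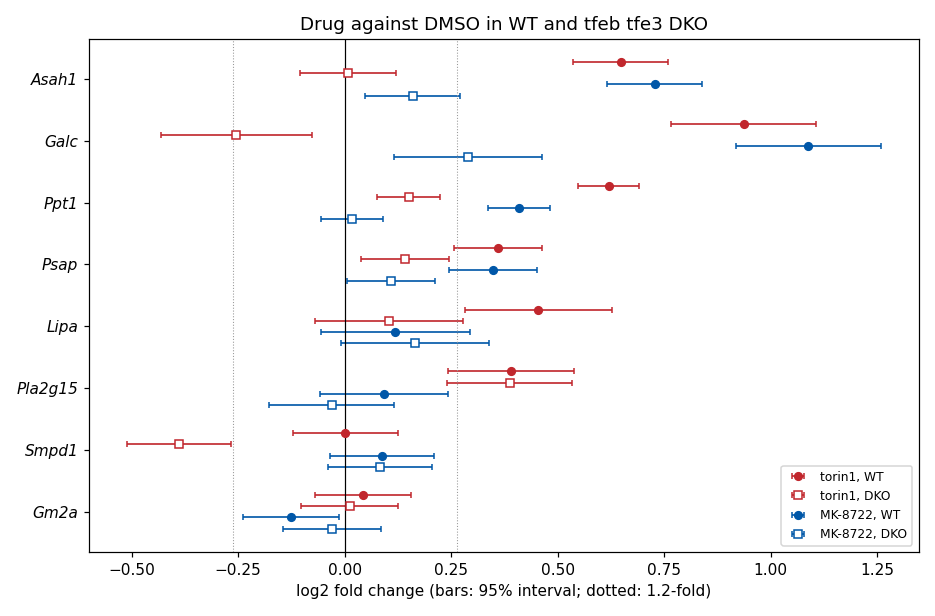
Log2 fold change of each member with torin1 (red) or MK-8722 (blue) against DMSO, in WT (filled circles) and *tfeb tfe3* DKO (open squares), with 95% intervals from the fit and dotted lines at a 1.2-fold change. The filled and open marks lie apart with both drugs for *Asah1*, *Galc* and *Ppt1*, and by less for *Psap*, whose responses were under the fold limit. For *Pla2g15* with torin1 the marks coincide at 0.39.

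Of the 2 activators, *Psap* (ENSMUSG00000004207) encodes prosaposin, the precursor of the saposins that present sphingolipids to *Asah1*, *Galc* and glucocerebrosidase, and lies on chromosome 10 at 60277627 to 60302597, plus strand. WT libraries held 661, 783, 657 and 682 CPM with DMSO, 956, 907, 827 and 880.3 CPM with torin1 and 875, 941, 903 and 824 CPM with MK-8722. DKO libraries held 796, 805, 784 and 767 CPM with DMSO, 893, 831, 859.9 and 894 CPM with torin1 and 849, 833, 856 and 862 CPM with MK-8722. Treated libraries were above all DMSO libraries in both genotypes, by less in DKO, and the highest WT DMSO library was again that of passage 11. Torin1 and DMSO libraries were apart for 54.1% (WT) and 52.8% (DKO) of all genes, and MK-8722 and DMSO libraries for 29.8% and 21.1%.

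*Psap* rose in WT by 0.36 with torin1 (SE 0.050, adjusted p = 1.59e-06) and 0.35 with MK-8722 (SE 0.050, adjusted p = 1.12e-05). In DKO the values were 0.14 (adjusted p = 0.0187), under the fold limit, and 0.11 (adjusted p = 0.13). The responses were -0.22 (SE 0.071, adjusted p = 0.0392) for torin1 and -0.24 (SE 0.071, adjusted p = 0.0414) for MK-8722, both under the fold limit. Without WT DMSO replicate 2 they were -0.27 (adjusted p = 0.00407) and -0.30 (adjusted p = 0.00268), past it.

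*Gm2a* (ENSMUSG00000000594) encodes the GM2 activator, which hands ganglioside GM2 to hexosaminidase A, and lies on chromosome 11 at 55098115 to 55113029, plus strand. WT libraries held 66.1, 67.9, 70.7 and 67.4 CPM with DMSO, 72.5, 73.4, 63.7 and 70.9 CPM with torin1 and 65.4, 61.7, 61.1 and 61.1 CPM with MK-8722. DKO libraries held 47.6, 46.3, 48.1 and 51.7 CPM with DMSO, 53.7, 51.2, 46.0 and 44.6 CPM with torin1 and 47.4, 50.6, 46.0 and 45.8 CPM with MK-8722. Every DKO library was below every WT library. Within a treatment, the genotypes were apart for 56.8% (DMSO), 60.3% (torin1) and 54.7% (MK-8722) of all genes. No drug effect on *Gm2a* passed the test, with 95% intervals of -0.07 to 0.16 (torin1, WT), -0.24 to -0.01 (MK-8722, WT, adjusted p = 0.0847), -0.10 to 0.13 (torin1, DKO) and -0.14 to 0.08 (MK-8722, DKO). It was lower in DKO under each treatment, with log2 fold changes of -0.49 (DMSO, adjusted p = 5.61e-08), -0.52 (torin1, adjusted p = 1.75e-08) and -0.39 (MK-8722, adjusted p = 1.44e-06).

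Among the enzymes that cut neutral lipids and phospholipids, *Lipa* (ENSMUSG00000024781) encodes lysosomal acid lipase, which frees cholesterol and fatty acids from cholesteryl esters and triglycerides. It lies on chromosome 19 at 34492318 to 34527474, minus strand. WT libraries held 29.3, 38.3, 31.4 and 34.3 CPM with DMSO, 53.0, 45.2, 41.2 and 43.3 CPM with torin1 and 35.7, 40.6, 35.5 and 33.0 CPM with MK-8722. DKO libraries held 39.0, 35.2, 36.3 and 38.5 CPM with DMSO, 43.0, 41.2, 36.6 and 39.3 CPM with torin1 and 45.2, 43.0, 40.5 and 38.4 CPM with MK-8722. In WT torin1 lay above both other groups, and in DKO the 3 groups overlapped. Torin1 libraries of WT were apart from DMSO for 54.1% and from MK-8722 for 52.2% of all genes. The passage 11 library was the highest of each WT group.

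*Lipa* rose with torin1 in WT by 0.45 (SE 0.083, adjusted p = 5.77e-05), and the MK-8722 value was 0.12 (95% interval -0.05 to 0.29). Torin1 exceeded MK-8722 in WT by 0.34 (SE 0.083, adjusted p = 0.00141), and without WT torin1 replicate 1, of passage 11, this was 0.23 and under the fold limit. In DKO the values were 0.10 (adjusted p = 0.311) and 0.17 (adjusted p = 0.176). The response to torin1 was -0.35 (SE 0.12, adjusted p = 0.0472), a call that ended in 18 of 28 alternatives, 12 of them sets without 1 library (adjusted p = 0.161 without WT torin1 replicate 1). The response to MK-8722 was 0.05 (95% interval -0.20 to 0.29).

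*Pla2g15* (ENSMUSG00000031903), for lysosomal phospholipase A2, which removes fatty acids from phospholipids, lies on chromosome 8 at 106150399 to 106164715, plus strand. WT libraries held 22.3, 25.8, 20.8 and 21.8 CPM with DMSO, 32.3, 28.5, 28.5 and 29.7 CPM with torin1 and 23.1, 27.8, 24.2 and 21.5 CPM with MK-8722. DKO libraries held 30, 32.8, 31.1 and 30.7 CPM with DMSO, 39.1, 39.8, 41.8 and 42.1 CPM with torin1 and 28.5, 31.0, 29.1 and 33.3 CPM with MK-8722. Torin1 libraries were above both other groups in each genotype, and the MK-8722 libraries overlapped DMSO. Torin1 libraries were apart from DMSO for 54.1% (WT) and 52.8% (DKO) of all genes, and from MK-8722 for 52.2% and 49.9%. In each WT group the passage 11 library was the highest (25.8, 32.3 and 27.8 CPM).

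Torin1 raised *Pla2g15* by 0.39 in WT (SE 0.071, adjusted p = 5.7e-05) and by 0.39 in DKO (SE 0.071, adjusted p = 5.83e-05). The response to torin1 in DKO compared to WT was -0.00, with a 95% interval of -0.21 to 0.20. With MK-8722 the values were 0.09 (-0.06 to 0.24) in WT and -0.03 (-0.18 to 0.12) in DKO, and torin1 exceeded MK-8722 by 0.30 in WT (adjusted p = 0.00104) and 0.42 in DKO (adjusted p = 2.48e-05). The WT difference was 0.23 without WT torin1 replicate 1 and 0.24 without WT MK-8722 replicate 4, both under the fold limit. *Pla2g15* was higher in DKO under each treatment, by 0.45 (DMSO, adjusted p = 7.97e-06), 0.45 (torin1, adjusted p = 6.02e-06) and 0.33 (MK-8722, adjusted p = 0.000334).

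**Figure D3:**
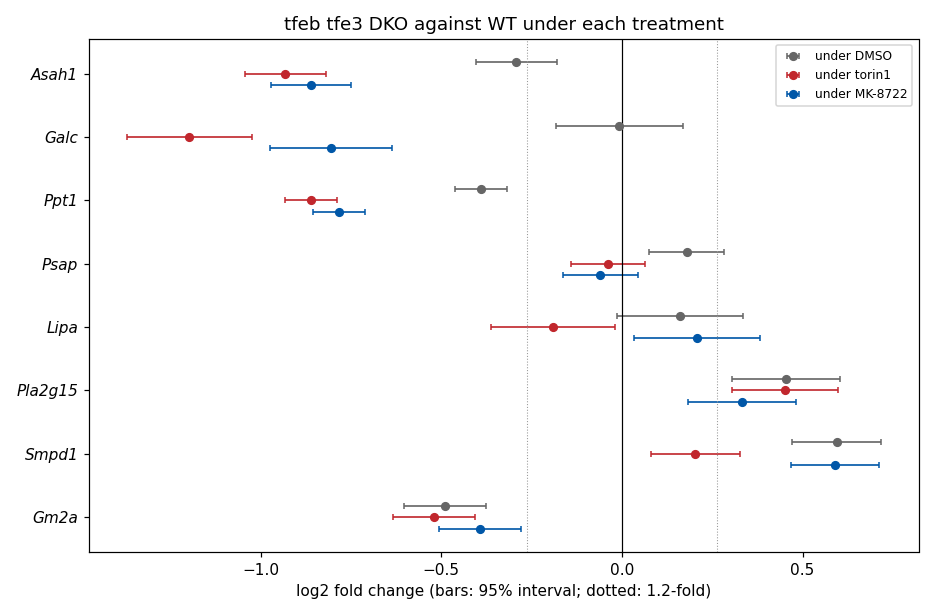
Log2 fold change of each member in *tfeb tfe3* DKO against WT under DMSO (grey), torin1 (red) and MK-8722 (blue), with 95% intervals from the fit and dotted lines at a 1.2-fold change. *Asah1*, *Galc* and *Ppt1* lie further below 0 with either drug than with DMSO, *Gm2a* lies near -0.5 to -0.4 throughout, and *Smpd1* and *Pla2g15* lie above 0.

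Between genotypes, 3 of 8 members were lower and 2 higher in DKO under DMSO, where 24.6% and 23.5% of all genes tested were. *Ppt1*, *Asah1* and *Gm2a* were lower and *Smpd1* and *Pla2g15* higher. Under torin1 4 were lower and 1 higher (27.8% and 24% of all genes), and under MK-8722 4 were lower and 2 higher (25.4% and 23.3% of all genes). *Galc* was the member added to the lower set under both drugs, with -1.2 (adjusted p = 1.92e-11) under torin1 and -0.80 (adjusted p = 1.13e-08) under MK-8722. *Asah1* stood at -0.93 (adjusted p = 7.81e-13) and -0.86 (adjusted p = 3.41e-12). *Psap* differed between genotypes by 0.18 under DMSO (adjusted p = 0.00331, under the fold limit), -0.04 under torin1 and -0.06 under MK-8722. *Lipa* values were 0.16, -0.19 and 0.21, all under the fold limit.

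Compared directly, torin1 gave higher levels than MK-8722 for 2 of 8 members in WT (*Lipa* and *Pla2g15*; 24.9% of all genes) and lower levels for 0 (20% of all genes), also 0 by limma voom, by DESeq2 and at an unadjusted p under 0.05. *Ppt1* was 0.21 higher with torin1 in WT, or 1.16-fold, and so under the fold limit (adjusted p = 1.6e-05). For *Asah1* and *Galc* the differences in WT were -0.08 (95% interval -0.19 to 0.03) and -0.15 (-0.32 to 0.01). In DKO torin1 gave a higher level of *Pla2g15* (21.1% of all genes were higher) and lower levels of *Smpd1*, by -0.47 (adjusted p = 4.16e-07), and *Galc*, by -0.54 (adjusted p = 8.64e-06), beside 19.3% of all genes that were lower.

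Drug and DMSO libraries of the same genotype were also compared passage by passage. In WT the torin1 ratio was above 0 on the log2 scale at 4 of 4 passages for *Asah1* (0.48 to 0.82), *Galc* (0.71 to 1.13), *Ppt1* (0.56 to 0.68), *Psap* (0.29 to 0.42), *Lipa* (0.40 to 0.49) and *Pla2g15* (0.32 to 0.52). With MK-8722 it was above 0 at 4 of 4 for *Asah1* (0.68 to 0.78), *Galc* (0.94 to 1.18), *Ppt1* (0.34 to 0.48), *Psap* (0.27 to 0.41), *Lipa* (0.05 to 0.19) and *Smpd1* (0.0035 to 0.19), and below 0 at 4 of 4 for *Gm2a* (-0.14 to -0.11). The effects of the last 3 did not pass the test over all groups. At passage 11 the WT torin1 ratios of *Asah1* and *Galc* were the lowest of the 4 passages, 0.48 and 0.71. In DKO the torin1 ratio of *Smpd1* was below 0 at 4 of 4 passages (-0.45 to -0.34), as was that of *Galc* (-0.36 to -0.08), and those of *Pla2g15* (0.35 to 0.43), *Ppt1* (0.10 to 0.20), *Psap* (0.06 to 0.22) and *Lipa* (0.01 to 0.16) were above 0 at 4 of 4. With MK-8722 in DKO the ratio was above 0 at 4 of 4 for *Galc* (0.21 to 0.38), *Asah1* (0.08 to 0.21), *Lipa* (0.13 to 0.23) and *Psap* (0.07 to 0.15). Of these DKO values, *Smpd1* and *Pla2g15* with torin1 and *Galc* with MK-8722 passed the test and the fold limit. The share of all genes with the same sign at 4 of 4 passages was not counted, so these signs are descriptions.

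**Figure D4:**
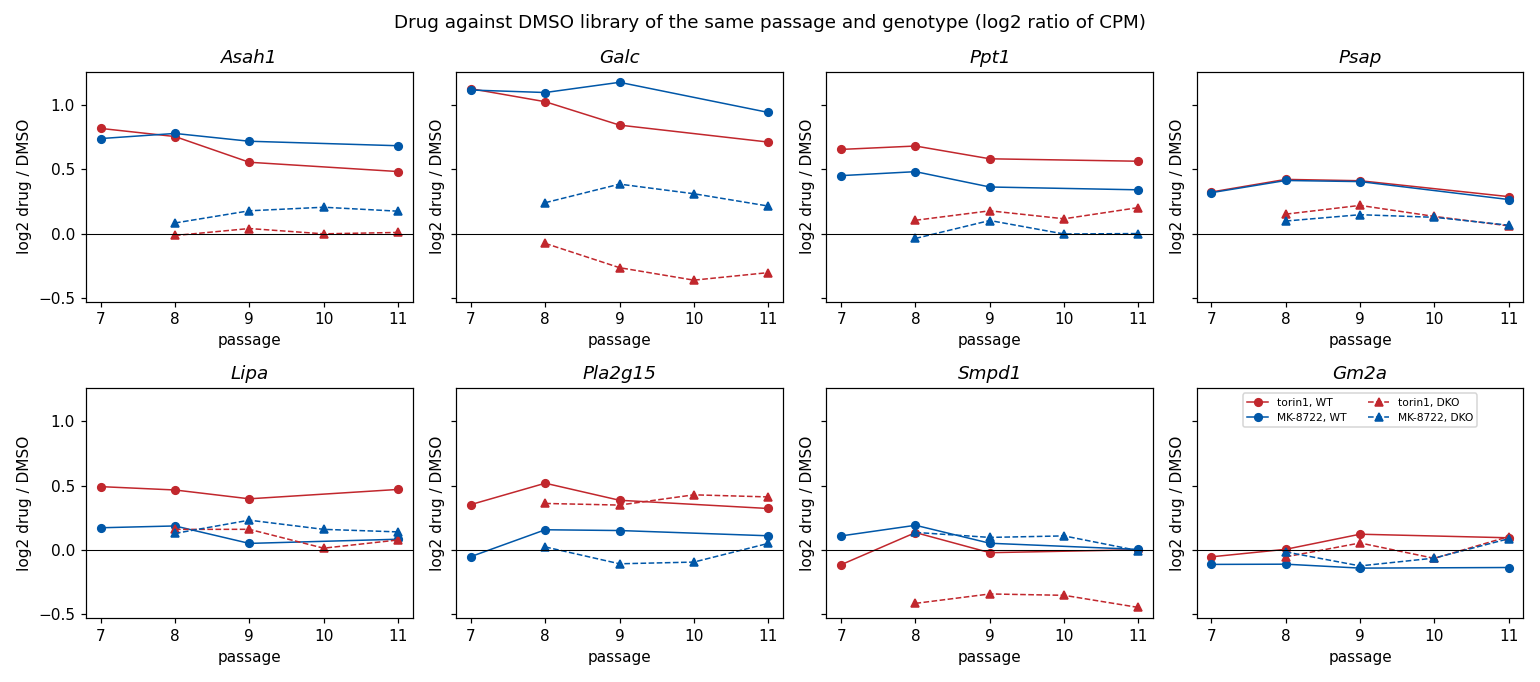
Log2 ratio of drug to DMSO CPM between libraries of the same passage and genotype, for each member (solid lines and circles WT, dashed lines and triangles DKO; red torin1, blue MK-8722). Lines join passages of 1 line for reading only. WT and DKO lines do not cross for *Asah1*, *Galc*, *Ppt1* and *Psap*, and for *Pla2g15* with torin1 they run together between 0.32 and 0.52.

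Levels of different genes were compared per length, in TPM, which scales a count by transcript length and library size. In WT DMSO the order was *Psap* (417 ± 35.7 TPM), *Asah1* (70.5 ± 6.68), *Ppt1* (37.2 ± 0.948), *Smpd1* (27.8 ± 0.983), *Gm2a* (25.4 ± 0.778), *Lipa* (18.6 ± 2.05), *Pla2g15* (15.1 ± 1.51) and *Galc* (9.36 ± 0.553). *Lipa* and *Pla2g15* overlapped between libraries, and the other neighbours did not. *Psap* and *Asah1* held the first and second place in all 6 groups. With torin1 in WT, *Smpd1* (29.7 ± 2.75), *Lipa* (28.9 ± 2.5) and *Gm2a* (27.9 ± 1.73) overlapped in order, as did *Pla2g15* (20.8 ± 2.13) and *Galc* (19.8 ± 2.76). In DKO DMSO *Smpd1* (41.6 ± 2.97 TPM) stood above *Ppt1* (27.8 ± 0.692), the reverse of WT, and *Gm2a* (17.7 ± 0.831) stood below *Pla2g15* (20.3 ± 0.565) and *Lipa* (19.9 ± 1.29).

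The share of each gene's TPM from its leading transcript was compared too. *Gm2a* had 1 annotated transcript, and the leading transcripts of the other members held between 36.3% ± 3.33 (*Psap*, WT torin1) and 90.1% ± 1.70 (*Smpd1*, DKO MK-8722) of the gene. For *Asah1* the leading coding transcript held 48.4% ± 2.09 in WT DMSO, 44.7% ± 3.86 with torin1 and 49.3% ± 5.14 with MK-8722, the remainder being mostly a transcript annotated for nonsense-mediated decay and one with a retained intron. In 21 exact permutation tests (two-sided, 4 against 4) of torin1, MK-8722 and genotype for the 7 other members, 0 had an adjusted p under 0.05, and the lowest unadjusted p was 0.0571 (*Ppt1*, DKO against WT under DMSO). The smallest p that 4 against 4 allows is 0.0286, so 1 test alone could not pass after adjustment over 21.

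The mean of the members' log2 CPM, each set to 0 at WT DMSO, was 0.43 ± 0.040 with torin1 and 0.34 ± 0.052 with MK-8722 in WT. The DKO means were 0.03 ± 0.013 (DMSO), 0.05 ± 0.032 (torin1) and 0.12 ± 0.026 (MK-8722). Across the 24 libraries, which share their 6 groups, genes whose log2 CPM followed this mean closely were *Gabarap* (Pearson's r = 0.96), *Cds2* (0.95), *Ppm1h* (0.95) and *Glmp* (0.95). *Gabarap* encodes an autophagosome protein of the ATG8 family and *Glmp* a lysosomal membrane glycoprotein. Against the mean of the other 7 members r was 0.82 for *Asah1*, 0.75 for *Galc* and 0.73 for *Ppt1*, 0.62 for *Psap*, 0.43 for *Lipa*, 0.38 for *Gm2a*, -0.34 for *Pla2g15* and -0.51 for *Smpd1*. These correlations describe the libraries and carry no test.

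The other lysosomal genes of lipid breakdown were taken as lists. Of 13 further lysosomal enzymes that cut lipids or glycolipids, 12 were tested, and in WT 9 rose and 0 fell with torin1 (26.6% and 20.5% of all genes) and 8 rose and 0 fell with MK-8722 (10.3% and 5.87% of all genes). In DKO 3 rose and 2 fell with torin1 (23% and 20.2% of all genes), and 4 rose with MK-8722 (5.47% of all genes). Their responses were lower in DKO for 9 (torin1) and 8 (MK-8722) of 12 and higher for 0 (lower for 6.33% and 4.08% of all genes), with medians of -0.74 and -0.51 against -0.01 and 0.01 over all genes. Each count of 0 for this list was also 0 with limma voom, with DESeq2 and at an unadjusted p under 0.05. *Neu1*, a sialidase, rose by 0.55 with torin1 and 1.97 with MK-8722 in WT, and in DKO it fell by 0.84 on the log2 scale with torin1 and rose by 0.48 with MK-8722. *Arsa*, the sulfatase for sulfatide, rose by 1.53 and 0.93 in WT, with responses of -1.09 (adjusted p = 2.01e-07) and -0.68 (adjusted p = 0.00016). *Hexa*, a subunit of the hexosaminidase that *Gm2a* serves, rose from 47.0 ± 3.07 CPM to 86.5 ± 4.34 with torin1 and 109 ± 10.3 with MK-8722 in WT. In DKO *Hexa* rose with MK-8722 (0.28, adjusted p = 0.00643), and its torin1 value was -0.02 (adjusted p = 0.798). *Hexa* responses were -0.90 (adjusted p = 1.09e-06) and -0.93 (adjusted p = 7.57e-07).

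Of 11 genes for lysosomal lipid handling and export, all tested, 10 rose and 1 fell with torin1 and 7 rose with MK-8722 in WT, while in DKO 4 rose and 1 fell with torin1 and 1 rose with MK-8722. The shares of all genes are those given for the list before. Responses were lower in DKO for 6 and 5 and higher for 0, the last also with limma voom, with DESeq2 and at an unadjusted p under 0.05. *Npc1*, which exports cholesterol, rose by 0.92 and 1.13 in WT and by 0.34 and 0.28 in DKO, with responses of -0.58 (adjusted p = 4.66e-05) and -0.86 (adjusted p = 2.2e-07). *Cln3* had a response of -0.80 to MK-8722 (adjusted p = 0.0121), and its torin1 value of -0.44 did not pass (adjusted p = 0.139).

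Enzymes of like reaction outside the lysosome made up the next list. Of 18, 17 were tested, and with torin1 in WT 2 rose and 6 fell (26.6% and 20.5% of all genes), with MK-8722 3 rose and 1 fell (10.3% and 5.87% of all genes). In DKO 4 rose and 4 fell with torin1 (23% and 20.2% of all genes), and 3 rose with MK-8722 (5.47% of all genes). Responses to torin1 were higher in DKO for 2 (4.68% of all genes). These were *Abhd17c*, a depalmitoylase (0.47, adjusted p = 2.28e-05), and *Pla2g4a*, cytosolic phospholipase A2 (0.30, adjusted p = 0.00677). Responses to MK-8722 passed for 0 of 17. For MK-8722, 2 higher and 1 lower passed at an unadjusted p under 0.05, and limma voom and DESeq2 also called 0. Without WT passage 11, 4 of the 17 passed for torin1.

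Of 17 sphingolipid synthesis genes, 16 were in the table and 13 were tested. With torin1 in WT 3 rose and 1 fell (26.6% and 20.5% of all genes), and with MK-8722 7 rose (10.3% of all genes). In DKO 3 rose and 2 fell with torin1 (23% and 20.2% of all genes), and 3 rose with MK-8722 (5.47% of all genes). Responses to torin1 were lower in DKO for 4 and higher for 2 (6.33% and 4.68% of all genes). Responses to MK-8722 were lower for 4 (4.08% of all genes). *Cers1*, a ceramide synthase at 1.07 ± 0.240 CPM in WT DMSO, rose in WT to 3.45 ± 0.583 CPM (torin1) and 2.16 ± 0.0890 CPM (MK-8722), with responses of -1.44 (adjusted p = 0.000638) and -1.10 (adjusted p = 0.0142). *Kdsr*, of the pathway's reduction step, rose in both genotypes with both drugs, with responses of -0.42 and -0.59. It stood at 22.3 ± 1.49 CPM in WT DMSO and 44.9 ± 2.68 CPM in DKO DMSO. *Ugcg*, which makes glucosylceramide, rose by 0.69 with MK-8722 in WT (response -0.74, adjusted p = 6.35e-05) and stood at -0.23 with torin1, under the fold limit. Without WT passage 11, 7 genes of this list passed with torin1 in WT in place of 4. Over all genes that run gave 3757 higher and 3406 lower, in place of 4100 and 3153.

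Of 5 genes that phosphorylate, dephosphorylate or cleave sphingosine and its phosphate, 4 were tested. *Sgpl1*, the lyase that ends the pathway, rose by 0.57 with torin1 and by 0.57 with MK-8722 in WT, and its responses were -0.30 (adjusted p = 0.0065) and -0.42 (adjusted p = 0.000441). *Sgpp1*, a phosphatase, fell by 0.31 on the log2 scale with torin1 in WT and by 0.61 on the log2 scale in DKO (response -0.29, adjusted p = 0.00564). The count of 2 lower responses to torin1 (6.33% of all genes) became 1 without WT passage 11 and 1 without DKO passage 8. The lists were chosen with earlier results of these data known, and their counts are descriptions.

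**Figure D5:**
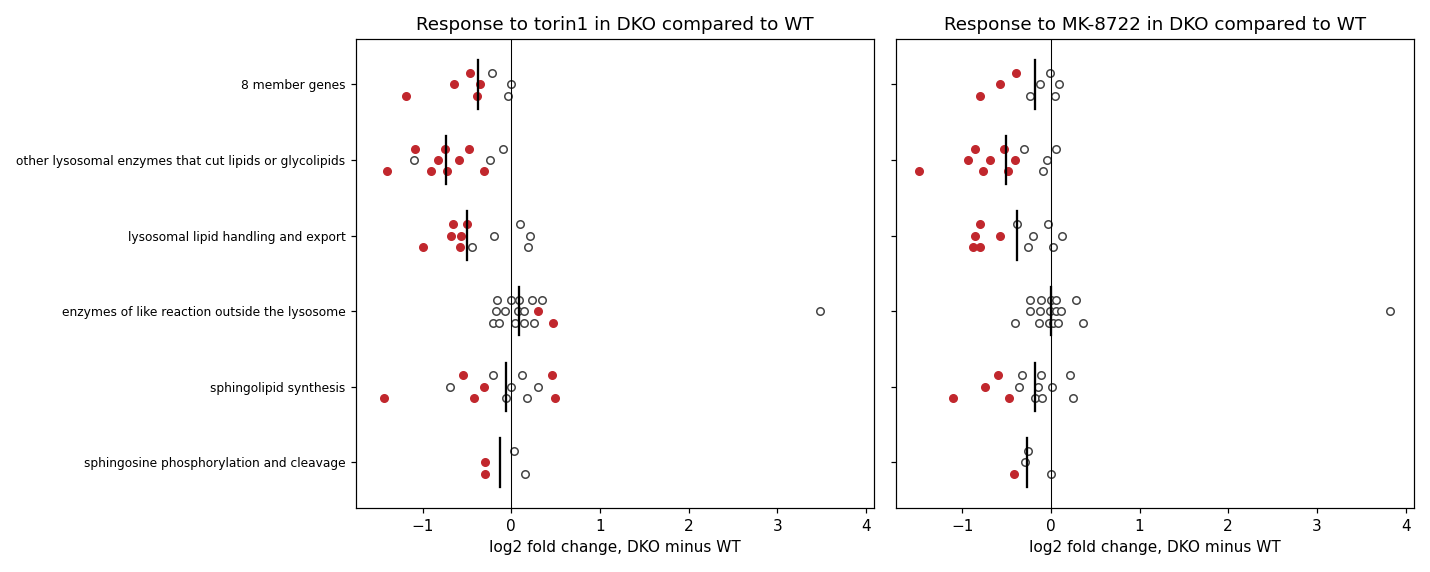
Difference in drug response between *tfeb tfe3* DKO and WT (log2 fold change in DKO minus that in WT) to torin1 (left) and MK-8722 (right) for every tested gene of the members and of the 5 lists. Red points passed the test and the fold limit, open points did not, and black bars are medians. The point near 3.5 to 3.8 is *Acer2*, which averaged 0 CPM in DKO DMSO and 0.601 CPM in WT DMSO and did not pass.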

How the data were processed

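Polyadenylated RNA of 24 MEF cultures was sequenced as paired-end reads. The authors aligned reads with STAR to GRCm38, considered unique molecular identifiers and quantified genes with Salmon in the nf-core/rnaseq workflow. The deposited gene table holds estimated counts, and the deposited transcript tables hold estimated counts and TPM. The strandedness setting and the versions of STAR and Salmon are not given in the sources used here.

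Estimated counts were rounded to whole numbers. Genes were kept by filterByExpr (minimum count 10), libraries were scaled by TMM, and 1 mean per group was fitted with edgeR 4.0.16 (glmQLFit, glmQLFTest; 18 residual degrees of freedom) in R 4.3.3, as contrasts over all 24 libraries. P-values were adjusted over 15401 genes by the Benjamini-Hochberg method, and a call needed a fold change of at least 1.2 with an adjusted p under 0.05, which are the thresholds of the study. The study also removed a batch with limma that its methods do not describe. The labels give 1 batch, so none was removed. Intervals are at 95% and cover the fitted spread. The test was checked on simulated data. No 2 libraries of a group were alike, since chi-square per degree of freedom was 3.97 to 40.5 over 36 pairs.

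Named genes were the members, the pair of knocked-out genes, the 5 genes most correlated with the members' mean, and up to 3 genes per list with the widest called responses, some of which are not reported here. *Acer2*, *Cap1*, *Gm47439* and the marker genes were named after their values were seen. The members and lists were chosen with earlier results of these data known. Alternatives used DESeq2 1.42.0, limma 3.58.1 and other settings given in the closing section. Exact permutation tests used scipy 1.17.1, and the 3 planned for *Gm2a* were left out because its only transcript holds the whole gene. Positions are from GENCODE on GRCm38.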

Additional observations from a re-analysis of the deposited data

Results flagged for a closer look

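In 2 of 48 groups of 4 libraries, 1 library stood apart by Dixon's criterion, and chance gives about 1 in 20. *Smpd1* reached 68.3 CPM in DKO MK-8722 replicate 1, where the other 3 libraries held 61.7 to 62.5 CPM. *Gm2a* reached 65.4 CPM in WT MK-8722 replicate 1, where the other 3 held 61.1 to 61.7 CPM.

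Drug effects that differed between genotypes by edgeR's test of the difference were also singled out. For torin1 the responses in DKO compared to WT were -1.19 for *Galc*, -0.64 for *Asah1*, -0.47 for *Ppt1*, -0.39 for *Smpd1* and -0.35 for *Lipa*. For MK-8722 they were -0.80 for *Galc*, -0.57 for *Asah1* and -0.39 for *Ppt1*. The torin1 difference of *Smpd1* came from a decrease in DKO (50.4, 45.7, 45.3 and 42.1 CPM against 62.4, 56.2, 57.9 and 63.9 CPM) with a WT value of 0.00, whereas those of *Asah1*, *Ppt1* and *Lipa* came with an increase in WT.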

How the results depend on the processing

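Of 42 member values that passed the test, 33 passed in every alternative run and 0 changed sign. The response of *Lipa* to torin1 was lost in 18 of 28 alternatives, with adjusted p between 0.053 and 0.161 in those other than the edgeR test against a fold change of 1.2, which gave 0.674. That stricter test also ended the calls of *Psap* with MK-8722 in WT (adjusted p = 0.164), *Smpd1* in the response to torin1 (0.308), *Ppt1* in the response to MK-8722 (0.0891), *Pla2g15* (DKO against WT under MK-8722, 0.143), *Asah1* (DKO against WT under DMSO, 0.256), *Galc* with MK-8722 in DKO (1) and *Lipa* and *Pla2g15* (torin1 against MK-8722 in WT, 0.179 and 0.293). With the offset for transcript length the call of *Galc* with MK-8722 in DKO also ended (0.0732), and *Galc* with torin1 in DKO passed the fold limit without the count filter (-0.28) and without DKO passage 8 (-0.31). The cause was not tested. The replicate numbers did not pair libraries (correlation of deviations within genotype -0.41 to 0.66, over 0.1 in 7 of 24 pairs). With the replicate number as a block, 6 and 4 members rose with torin1 and MK-8722 in WT, the responses passed for 5 and 3, and the other member counts were also as without it. Libraries of 1 passage and genotype did deviate together (22 of 24 were closest to their own passage; r 0.02 to 0.66), and a block for passage changed no member's call.

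The counts of members and list genes that changed by over 1.5 times are given first. With the adjusted p alone, torin1 in DKO gave 5, MK-8722 in DKO 2, and torin1 against MK-8722 4 in WT and 5 in DKO. The test against a fold change of 1.2 gave 0 for MK-8722 in DKO, 3 for the response to torin1 and 0 for torin1 against MK-8722 in WT, and an offset for transcript length gave 0 for MK-8722 in DKO. Leaving out 1 library gave 0 to 1 for MK-8722 in DKO and 0 to 2 for torin1 against MK-8722 in WT. Smaller changes without 1 library were 2 to 3 for torin1 in DKO, 4 to 5 for DKO against WT under DMSO, 4 to 6 for the response to torin1 and 3 to 4 for that to MK-8722, and the other 5 member counts did not change. In the lists, the adjusted p alone gave 8 sphingolipid synthesis genes with torin1 in WT, 4 sphingosine genes with MK-8722 in WT and 2 in the response to MK-8722. Without WT passage 11 the counts were 7 (sphingolipid synthesis, torin1 in WT), 4 (enzymes outside the lysosome, response to torin1) and 1 (sphingosine genes, response to torin1), the last also 1 without DKO passage 8. Over all genes, the response to torin1 gave 1051 higher and 749 lower without WT passage 11, and 689 and 802 without DKO passage 8. Among all 15401 genes tested, the adjusted p alone gave 5011 higher and 4320 lower with torin1 in WT and 4460 and 4325 in DKO. For torin1 against MK-8722 it gave 4804 and 4386 in WT and 4275 and 4284 in DKO. With MK-8722 it gave 2432 higher and 2343 lower in WT and 1619 and 1579 in DKO. The response to MK-8722 gave 317 and 734. The test against a fold change of 1.2 gave 766 and 190 with MK-8722 in WT, and 141 and 33 in DKO. It gave 2703 and 2176 for torin1 against MK-8722 in WT. For the responses it gave 141 and 313 (torin1) and 19 and 254 (MK-8722). The passage block gave 486 and 906 for the response to MK-8722.

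Values near 0 that never passed changed sign. *Smpd1* with torin1 in WT was -0.030 without the count filter, -0.011 with DESeq2 size factors and with DESeq2, -0.0039 with the length offset, -0.017 with only the groups compared, -0.0006 with the replicate block, -0.0015 with the passage block, -0.031 without WT passage 11, -0.0023 without DKO passage 8 and -0.0034 with limma voom. *Pla2g15* in the response to torin1 was 0.0053 without the filter, 0.017 with size factors, 0.018 with DESeq2, 0.017 without WT passage 11, 0.015 without DKO passage 8 and 0.0019 with limma voom. *Psap* in torin1 against MK-8722 in WT was -0.018 without the filter, -0.0012 with the offset, -0.0086 with only the groups compared and -0.018 without WT passage 11. *Galc* in DKO against WT under DMSO was 0.010 without the filter, 0.010 with the offset and 0.033 without DKO passage 8. Without the filter, *Asah1* and *Gm2a* with torin1 in DKO were -0.015 and -0.010, and with the offset *Asah1* was -0.0082 and *Lipa* in torin1 against MK-8722 in DKO 0.0077. Without WT passage 11, *Gm2a* was -0.0058 with torin1 in WT and 0.031 in the response to torin1, and *Psap* in DKO against WT under torin1 was 0.0096. *Smpd1* in the response to MK-8722 was 0.0037 with size factors and 0.0038 with DESeq2.

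Leaving out 1 library gave ranges of -0.052 to 0.030 (*Smpd1*) and -0.0018 to 0.060 (*Gm2a*) for torin1 in WT, of -0.0077 to 0.029 (*Asah1*) and -0.031 to 0.060 (*Gm2a*) for torin1 in DKO, and of -0.061 to 0.0047 (*Gm2a*), -0.078 to 0.0007 (*Pla2g15*) and -0.015 to 0.033 (*Ppt1*) for MK-8722 in DKO. They were -0.052 to 0.028 for *Galc* (DKO against WT under DMSO), -0.061 to 0.0098 for *Psap* (DKO against WT under torin1), -0.071 to 0.027 (*Gm2a*) and -0.062 to 0.080 (*Pla2g15*) for the response to torin1, -0.041 to 0.027 (*Smpd1*) and -0.029 to 0.12 (*Lipa*) for the response to MK-8722, and -0.046 to 0.031 for *Psap* (torin1 against MK-8722 in WT).

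Leading-transcript shares, none of which passed, changed sign in percentage points. As shares of estimated counts they were -0.145 (*Asah1*, DKO against WT), -0.669 (*Smpd1*, MK-8722), 0.975 (*Lipa*, MK-8722), -0.186 (*Lipa*, DKO against WT) and -0.770 (*Pla2g15*, MK-8722), and with transcripts of at least 1 TPM *Pla2g15* was -0.358 (DKO against WT). Without 1 library they ran from -1.46 to 1.01 (*Smpd1*), -0.914 to 1.2 (*Pla2g15*) and -2.77 to 0.542 (*Ppt1*) for torin1 in WT. For MK-8722 in WT they ran from -1.44 to 2.71 (*Asah1*), -1.12 to 1.49 (*Smpd1*), -1.04 to 0.789 (*Psap*), -2.32 to 0.636 (*Lipa*) and -1.45 to 0.004 (*Ppt1*), and for DKO against WT under DMSO from -1.88 to 2.09 (*Asah1*), -1.43 to 0.938 (*Psap*), -0.680 to 2.19 (*Lipa*) and -2.31 to 1.64 (*Pla2g15*). The 95% intervals of the members' responses were 0.205 to 0.492 wide on the log2 scale, the precision that 4 libraries a group gave.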
